A study of Mus musculus with 2 samples.

Results

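The mitochondrially encoded messenger RNAs described here are 10 transcripts of the mouse mitochondrial genome: ND1, ND2, ND3, ND4, ND4L, ND5 and ND6, which encode subunits of respiratory complex I, CYTB, which encodes the cytochrome b of complex III, and COX1 and COX2, which encode core subunits of complex IV. They were chosen by the gene name that the array gives each non-control probe, at a time when their signals on both arrays, and the difference of ND6 between them, were known. Each of the 10 had 1 probe with 1 spot, so that 10 of 56605 probes and 10 of 21018 genes measured on both arrays belong to them. ATP8 and the other mitochondrial transcripts on the array are not among the 10 and are given only for comparison.

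Total RNA came from 46C cells, a mouse embryonic stem cell line kept in serum with LIF on a feeder layer, which was taken off before the RNA was harvested. The control carried the genotype label shCtrl, and the other sample shLincU, a short hairpin against the long noncoding RNA LincU. Each group was 1 sample on 1 one-colour array, so the comparison has no replicate check, no test and no p-value, and its precision is limited by how few arrays there are. The study's title concerns LincU in naive pluripotency and ERK activity. The control sample is titled WT, and only its genotype and description labels give it a control hairpin. The labels give no hairpin sequence, clone number or time. No probe carried the name LincU, so the knockdown was not checked here and directions rest on the array labels.

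Mitochondrial DNA has a heavy and a light strand, both read by the polymerase POLRMT into long transcripts that run through many genes and are then cut apart, largely at the transfer RNAs between them. Nearly all messenger RNAs come from one of these transcripts, and their genes are called the heavy-strand genes here. ND6 is the single messenger RNA of the opposite, light-strand direction. Most mitochondrial messenger RNAs receive a short poly(A) tail, whereas in human cells the ND6 messenger RNA is known to lack one. RNA for one-colour arrays of this kind is usually amplified from the poly(A) tail, and the labels name a linear amplification kit.

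The probe sequences show the strand that each spot reads, and 4 of them are printed with every guanine in capitals. ND6 and an antisense RNA that the array names GU332589 lie on the reverse strand of the mitochondrial genome (mm9, the build in the file headers). ND5 is the nearest heavy-strand neighbour of ND6 with a probe before it, and CYTB the one after it.
ND6, chrM:13552-13611, reverse strand: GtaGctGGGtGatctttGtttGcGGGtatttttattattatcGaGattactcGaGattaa
GU332589, chrM:1155-1214, reverse strand: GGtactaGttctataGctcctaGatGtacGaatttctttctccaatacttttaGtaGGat
ND5, chrM:13402-13461, forward strand: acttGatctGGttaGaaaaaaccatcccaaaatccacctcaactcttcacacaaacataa
CYTB, chrM:15099-15158, forward strand: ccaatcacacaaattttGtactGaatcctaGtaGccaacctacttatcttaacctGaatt
Guanine made up 25% of the bases of the ND6 probe, against 6.67% to 18.3% in the 9 heavy-strand members. The share of G and C together was 35% for ND6 and 35% to 36.7% for the others, so the probes differed in strand composition and hardly in GC content. The ND6 probe began 90 bases after the end of the ND5 probe, on the other strand. All of these genes lack introns, and the annotation in the files does not say which part of a gene a probe reads.

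ND6 was higher on the shLincU array, and none of the 9 heavy-strand messenger RNAs moved by as much as 0.5 on the log2 scale. Its processed intensity was 723 with shCtrl and 1711 with shLincU, a ratio of 2.37 before any scaling. The shLincU array was dimmer as a whole, with a 75th percentile of 420 intensity units against 626 on the shCtrl array. Signals are therefore given as log2 of the intensity relative to the 75th percentile of the same array, and every difference is shLincU minus shCtrl on that scale. On it ND6 went from 0.21 with shCtrl to 2.03 with shLincU, a difference of 1.82 or 3.52-fold. The scanner software assigns this difference an error of 0.20, nearly all of it from a preset multiplicative term of 0.1. This value of ND6 was among the results known when the 10 genes were chosen, so it is a description and carries no weight as evidence. In RNA from whole cultures, fewer cells of a type and less RNA per cell cannot be told apart.

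**Figure D1:**
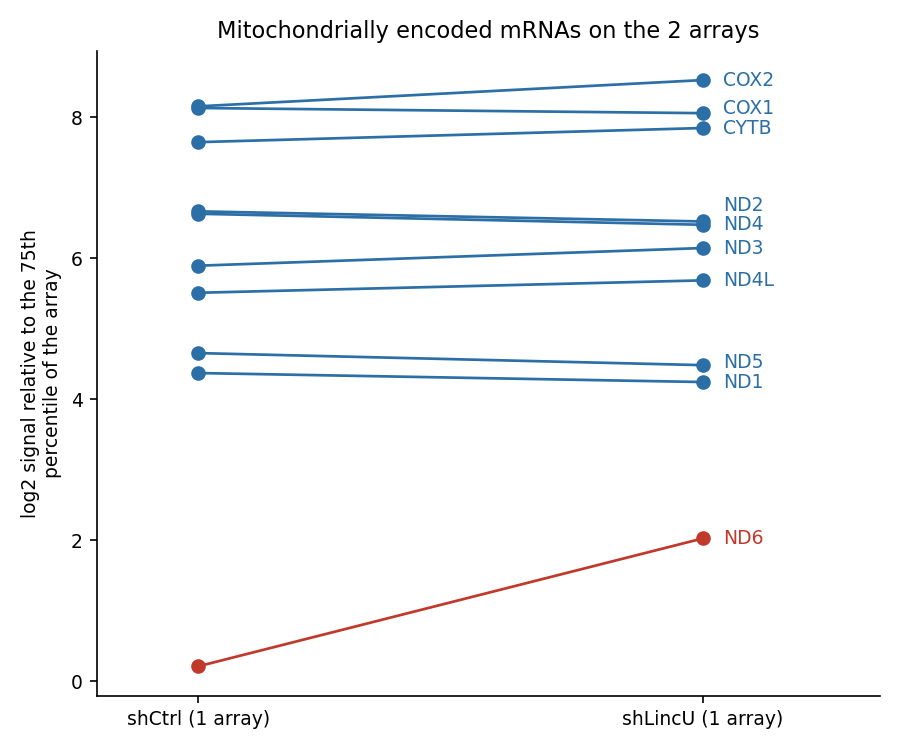
Signal of the 10 mitochondrially encoded messenger RNAs on the shCtrl and shLincU arrays, as log2 relative to the 75th percentile of each array, 1 array per group, with a line joining the 2 values of a gene. ND6 goes from 0.21 to 2.03, while the lines of the 9 heavy-strand genes are nearly level.

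Among the heavy-strand genes of complex I, the NADH dehydrogenase of the respiratory chain, the scaled signals lay close together. ND1 had intensities of 12945 with shCtrl and 7962 with shLincU, and a log2 difference of -0.13. ND2 had 63512 and 38630, with a difference of -0.14. ND4 had 62018 and 37393, with a difference of -0.16. These 3 subunits, which form part of the proton-pumping membrane arm, thus had nearly the same small negative difference. ND5, also of that arm, had 15753 and 9400 and a difference of -0.17. ND3 and ND4L, both small membrane subunits, went the other way, with intensities of 37207 and 29747 for ND3 (0.25) and of 28510 and 21645 for ND4L (0.18). The median over the 6 heavy-strand genes of complex I was -0.14.

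Of the other complexes, COX1, the catalytic subunit of cytochrome c oxidase, had intensities of 175514 and 112093 and a difference of -0.07. COX2, which takes up electrons from cytochrome c, had 178410 and 155226 and the highest difference of a heavy-strand member on this scale, 0.37. In the authors' deposited value table COX2 was at 0.17, below ND3 at 0.18, and COX1 at -0.28. CYTB had 125432 and 96849, with a difference of 0.20. Intensities of different probes depend on the probe and are not compared as amounts of RNA.

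Over the 9 heavy-strand members the median difference was -0.07, against 0.019 over all 21018 genes, with 4 members above 0 and 5 below. The mean was 0.04, of the other sign. They ranged from -0.17 to 0.37, and the SD between them was 0.21. All 9 lay within 0.5 of 0, as did 86.6% of all genes. Before scaling, the shLincU intensity was 0.597 to 0.870 times the shCtrl intensity in these 9, and 2.37 times in ND6. Of the 10 members, 1 was at least 2-fold higher, where 1.14% of all genes were, and 0 were at least 2-fold lower, where 1.54% of all genes were. Nothing is read from these shares, since ND6 was known to be high. ND6 ranked 48th among the 21018 genes from the highest difference, so 0.224% of genes stood above it. ND6 at 1.82 was the only member past the 2-fold size, and COX2 at 0.37 came next among the members, well short of it.

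**Figure D2:**
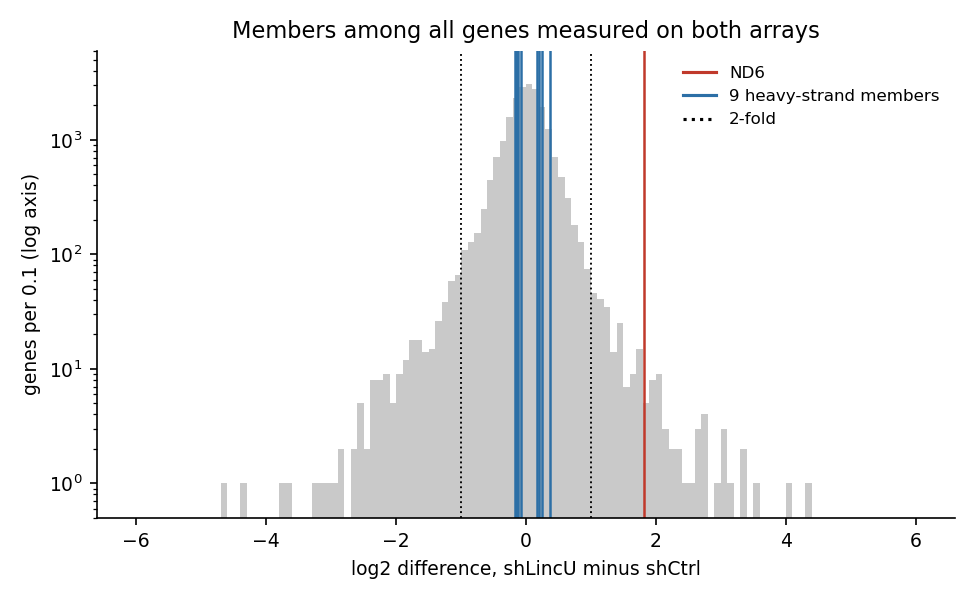
Number of genes per 0.1 of log2 difference (shLincU minus shCtrl; log axis) for the 21018 genes measured on both arrays, with vertical lines at the 10 members and dotted lines at 2-fold. The 9 heavy-strand members sit between -0.17 and 0.37 within the bulk, and ND6 at 1.82 in the upper tail.

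The comparison of the light-strand gene with the heavy-strand genes is made within the same arrays, so that scaling an array by 1 factor cancels. The difference of ND6 exceeded the median of the 9 heavy-strand members by 1.89, or 3.71-fold. It exceeded that of COX2, the highest of them, by 1.44, or 2.72-fold. Against ND5, the heavy-strand gene whose probe lies beside it, it was higher by 1.99, with a combined scanner error of 0.29. The contrast with the heavy-strand median stayed between 1.72 and 2.0 in the 13 alternative treatments that gave a value. With 1 spot per member, none of them flagged or dim, several of these treatments could not change it. Scaling by 1 factor, the filter on dim probes, averaging of probes and outlier spots each left it at 1.89. The number of treatments therefore carries no weight.

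A second probe in the light-strand direction did not share the height of ND6. The probe of GU332589, annotated in the files as a mitochondrial antisense RNA, lies ahead of ND1, in the part of the genome where the ribosomal RNAs are encoded on the opposite strand. Its intensity was 5894 with shCtrl and 3311 with shLincU, a log2 difference of -0.26. The difference of ND6 was therefore 2.07 above that of the other light-strand probe, or 4.21-fold. The 2 probes read RNAs of the same direction at distant positions, and which long transcript either RNA came from was not tested.

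The array holds 6 further probes in the heavy-strand direction of the mitochondrial genome that are not members. Their differences ranged from -0.38 to 0.32 with a median of 0.20, and none reached 2-fold. ATP8, a subunit of the ATP synthase, had intensities of 23904 and 19249 and a difference of 0.26. The probe AK140265, ahead of ND1 and in the direction of the ribosomal RNAs, had 270554 and 227126 and a difference of 0.32. The transcripts ENSMUST00000189941 and ENSMUST00000190277, whose probes lie between those of ATP8 and ND4L, were at 0.21 and 0.06. With the members and these probes together, all 15 probes of heavy-strand direction lay between -0.38 and 0.37.

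**Figure D3:**
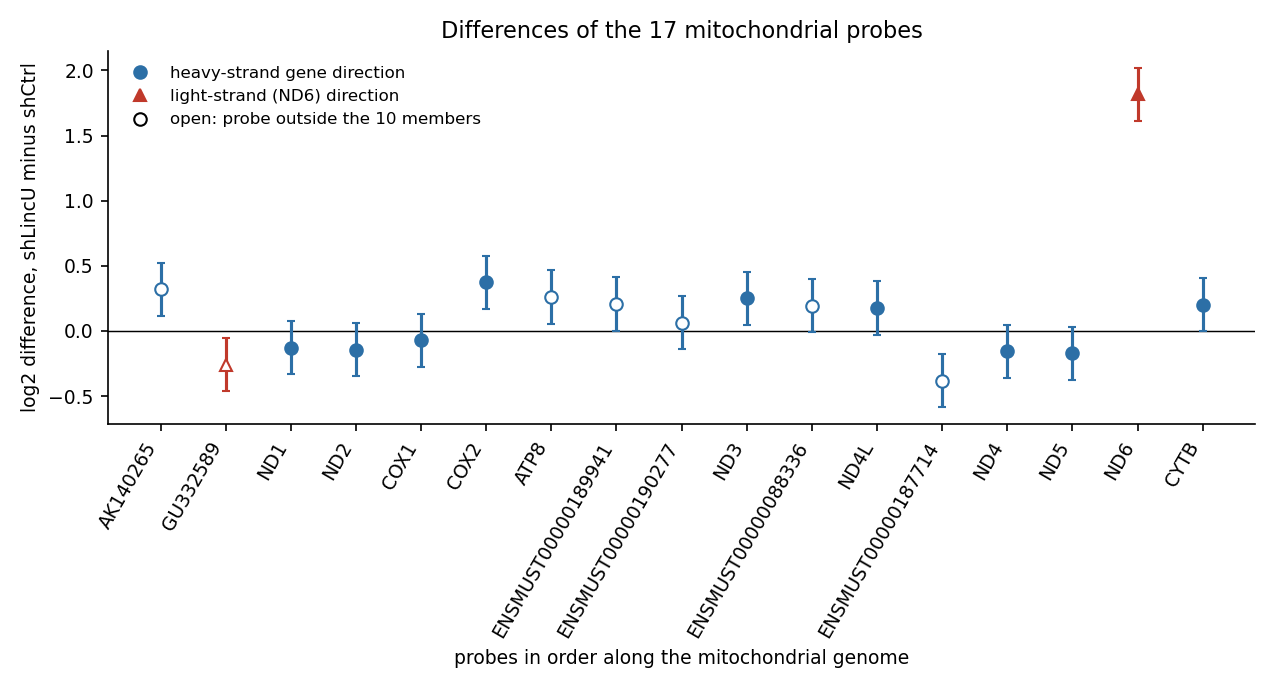
Log2 difference (shLincU minus shCtrl) of the 17 mitochondrial probes in order along the mitochondrial genome, with the error assigned by the scanner software as bars; filled symbols are the 10 members, open symbols other probes, circles the heavy-strand gene direction and triangles the light-strand direction. ND3 is placed by its RefSeq gene order. ND6 stands at 1.82 and the 16 other probes between -0.38 and 0.37.

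Pairs of probes on the same transcript show how far single spots of a gene can differ. The 2 probes that list the ND4L transcript share 57 of 60 bases, printed in capitals, and sit 117 rows apart on the array.
ND4L, chrM:10114-10173, forward strand: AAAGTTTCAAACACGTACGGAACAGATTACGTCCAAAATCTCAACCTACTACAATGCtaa
ENSMUST00000088336, chrM:10111-10170, forward strand: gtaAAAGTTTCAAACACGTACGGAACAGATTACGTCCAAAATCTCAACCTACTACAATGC
Their differences were 0.18 and 0.20, only 0.019 apart. The 2 probes that list the ND4 transcript read different stretches of it, and were at -0.16 and, for ENSMUST00000187714, -0.38. COX1 and a probe that lists its transcript but is placed on chromosome 2, ENSMUST00000117219, were at -0.07 and 0.26. The gap was 0.33 for COX1 and 0.23 for ND4. ND6 itself has no second probe. Over 295 probes with at least 5 measured spots, the median SD of the difference between spots was 0.040. Over the 15 of these within 1 log2 unit of the level of ND6 it was 0.062, and the highest was 0.102. These spreads are technical, within the 2 arrays, and say nothing of the spread between cultures.

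Copies of mitochondrial DNA in the nuclear genome resemble mitochondrial genes, and some probes cannot tell them apart. Of the 10 member probes, 5 list a further Ensembl transcript: ND3, ND4L, ND6, COX1 and COX2. Whether these further transcripts are nuclear or mitochondrial was not looked up. For ND3 the array gives a position on nuclear chromosome 1 (24619613 to 24619672, reverse strand, mm9) and none on the mitochondrial genome. The signals of these 5 are uncertain to that extent.

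Of all probes, 60.9% were well above background with shCtrl and 57.9% with shLincU, and log2 signals correlated at r = 0.990 over the 31898 probes above it on both arrays, a correlation across probes that are not independent. All 10 members were well above background on both arrays, 0 were saturated and 0 were marked as outliers. The spot of ND6 lay in row 53 of 384, in the upper rows, and was not beside discordant spots, a state counted when at least 2 neighbours differed 2-fold the same way. Of its neighbours within 2 rows and 1 column, 2 were above background on both arrays, with differences of 0.20 and 0.28. ND2 was the 1 member beside such spots. The 4 heavy-strand members in the upper rows had a median difference of 0.06 and the 5 in the lower rows -0.13.

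RNAs known to lack a poly(A) tail in the nucleus and cytosol were also mostly higher on the shLincU array relative to the bulk of genes, though by less than ND6. Of 10 noncoding RNAs of this kind, 8 were above 0, with a median difference of 0.57 against 0.019 over all genes. Only 1 was at least 2-fold higher, where 1.14% of all genes were. Scaled to E1A spike-in controls, which lowers every gene alike, the median was -0.32, against -0.87 over all genes. The 28S ribosomal RNA Rn28s1 had log2 levels of 6.60 and 8.04 and the largest difference of the list, 1.44. The spliceosomal RNAs Rnu2-10 and Rnu1a1 were at 0.68 and 0.64. Rpph1, the RNA of ribonuclease P, was at 0.64, Rmrp, the RNA of the related enzyme RNase MRP, at 0.55 and the signal recognition particle RNA Rn7s1 at 0.60. Rn7sk, which holds the elongation factor P-TEFb inactive, was at 0.51 and the 18S ribosomal RNA Rn18s at 0.36. The minor spliceosomal RNA Rnu12 and the telomerase RNA Terc were at -0.04 and -0.05.

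Genes of the histone clusters, whose messenger RNAs mostly end in a stem-loop in place of a tail, were looked at after these values had been seen. Of 49 measured, 41 were above 0, with a median of 0.37 against 0.019 over all genes. With E1A scaling the median was -0.52, against -0.87 over all genes. At least 2-fold higher was 1 of them, where 1.14% of all genes were, and nothing is read from that count. H4c8, a histone H4 gene, was at 1.11, from levels of -2.81 and -1.70, and the linker histone genes H1f3 and H1f1 were at 0.85 and 0.83. At the other end H2bc22 was at -0.54. Copies of a histone gene are nearly alike, so single members are uncertain. Whether the missing tail, RNA quality or the amplification had a part in the difference of ND6 was not tested.

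**Figure D4:**
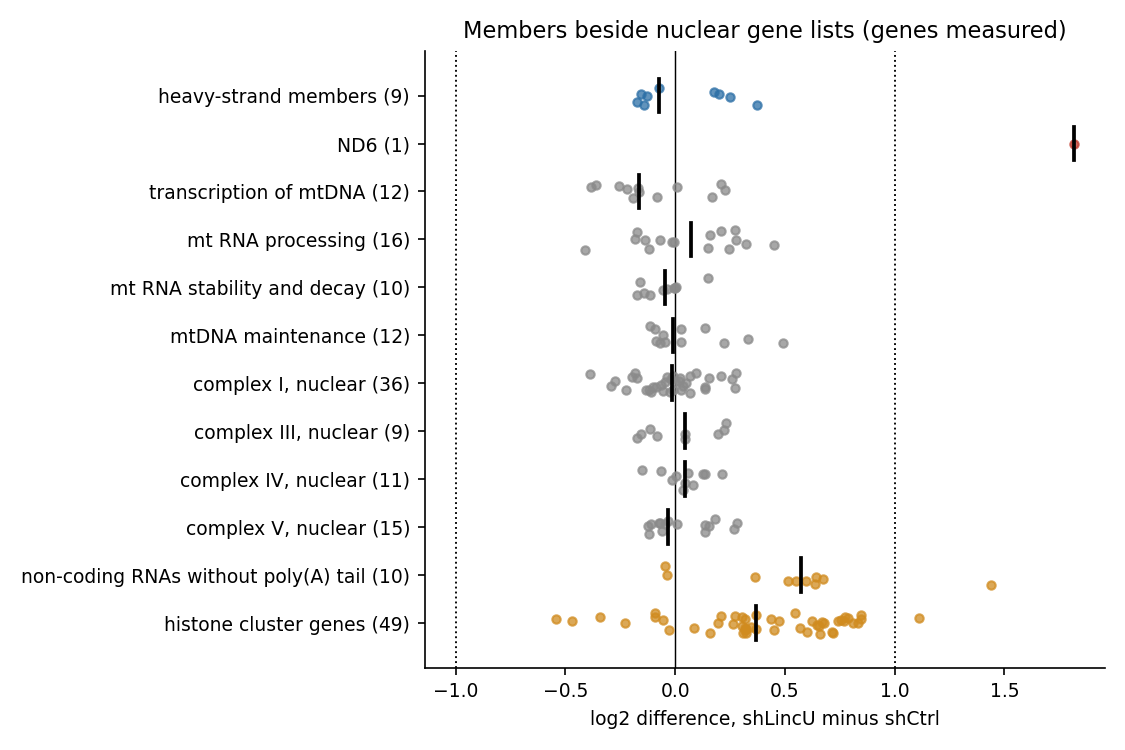
Log2 difference (shLincU minus shCtrl) of the members and of nuclear genes for the mitochondrial genome and the respiratory chain. Noncoding RNAs without a poly(A) tail and histone cluster genes are also shown. Points are genes, the bar is the median, the number measured is in brackets and dotted lines mark 2-fold. The grey lists stay within 0.5 of 0. The noncoding RNAs without a tail have a median of 0.57 and the histone cluster genes of 0.37.

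The nuclear genes that serve mitochondrial RNA lay near 0. Over 38 measured genes of transcription, processing and decay the median was -0.05, 14 were above 0 and 24 below, and none was 2-fold apart. Of the 12 transcription genes 4 were above 0 and the median was -0.17. Polrmt, the polymerase, was at -0.08, and Tfam and Tfb2m, which open the promoters with it, at -0.16 and -0.17. Tefm, the factor that keeps the polymerase elongating, was the lowest of them at -0.38, and Mterf3, of the MTERF family, was at -0.36. Of the processing enzymes, Trmt10c, a subunit of mitochondrial RNase P, was the lowest at -0.41 and Ptcd1, a pentatricopeptide protein, the highest at 0.45. Mtpap, the mitochondrial poly(A) polymerase, was at -0.07.

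The stability and decay factors went neither way by much. Lrpprc and Slirp, partners that bind and protect heavy-strand messenger RNAs, were at 0.0034 and 0.15. Supv3l1 and Pnpt1, the helicase and nuclease of the degradosome, were at -0.17 and -0.06. Grsf1, which in human cells binds guanine-rich light-strand RNA such as that of ND6, was at -0.04. Single probes or small probe groups underlie these values, and the scanner errors of those named ran from 0.12 to 0.20.

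The partners of the members in the respiratory chain were level as well. Over 71 measured nuclear subunits of complexes I, III, IV and V the median was 0.00048, with 36 above 0, 35 below and none 2-fold apart. Complex I subunits ran from Ndufs1, an iron-sulfur subunit, at -0.39 to Ndufa2 at 0.28, complex III from Cyc1, the cytochrome c1 gene, at -0.18 to Uqcrc1 at 0.23, and complex IV from Cox7a2l at -0.15 to Cox6c at 0.21. The 14 assembly factors of complex I had a median of -0.02 and a range of -0.26 to 0.28. The 12 genes that maintain mitochondrial DNA had a median of -0.01, and their mean was above 0, at 0.06. Rrm2b, a subunit of ribonucleotide reductase, was highest at 0.49. It rested on 1 dim probe, with levels of -3.47 and -2.98 and a scanner error of 0.28. Twnk, the helicase, was at 0.33. The 15 subunits of complex V likewise had a median of -0.03 and a mean of 0.04.

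The 13 translation factors had a median of 0.0034 and a mean of -0.02, from Mtrf1l, a release factor gene, at -0.33 to Taco1, which activates translation of COX1, at 0.31. Of 8 regulators of mitochondrial biogenesis 7 were measured on both arrays, from the coactivator gene Ppargc1b at -0.31 to the related Pprc1 at 0.20.

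By the size of the difference alone, over the 2 arrays, the genes nearest to ND6 with a symbol and at or above the median level were Fgf8 and Pkdcc, at 2.0 and 1.95, and Rn28s1 at 1.44. With 1 difference per gene, likeness here means no more than a similar size.

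Markers of the labelled cell type were present. All 10 markers of embryonic stem cells, among them Pou5f1, Sox2 and Zfp42, were measured on both arrays. Averaged per gene they lay within 0.5 of 0, with a median of 0.01. The 2 probes of Nanog, at 0.26 on average, differed widely, with an SD of 0.74. Of 12 markers of fibroblast feeder cells, 11 were measured on both arrays, of which 8 were below 0 and 3 above, with a median of -0.94. In 5 the level was at least 2-fold lower on the shLincU array, where 1.54% of all genes were. These ran from Dcn at -2.41 to Col1a2 at -1.20, while Col3a1, Col1a1 and Fn1 were at 0.64, 0.45 and 0.28. Summed over every probe of the 12 on the unlogged scale, the level relative to the 75th percentile was 95.1 with shCtrl and 100.5 with shLincU. Most of this sum came from the 8 probes of Fn1 and Col1a1. Such a sum follows the brightest probes and is not a sum of the levels per gene. On the log2 scale per gene, Fn1 was at 2.44 with shCtrl and 2.72 with shLincU, and Thy1 at 2.48 and 1.54. Without the probes of Fn1 and Col1a1 the sum, over 19 probes, was 16.5 with shCtrl and 6.71 with shLincU. Lum was the marker not above background on both arrays. The part of feeder cells in the difference of ND6 was not tested.

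Scaling to the E1A spike-in controls, in place of the 75th percentile, moved the median of all genes by -0.89 and every member with it. ND6 was then at 0.92, still above 0 but under 2-fold, and all 9 heavy-strand members were below 0, with 4 of them at least 2-fold lower. Directions of single members are therefore relative to the bulk of genes, whereas the gap of 1.89 between ND6 and the heavy-strand median is the same under both scalings.

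**Figure D5:**
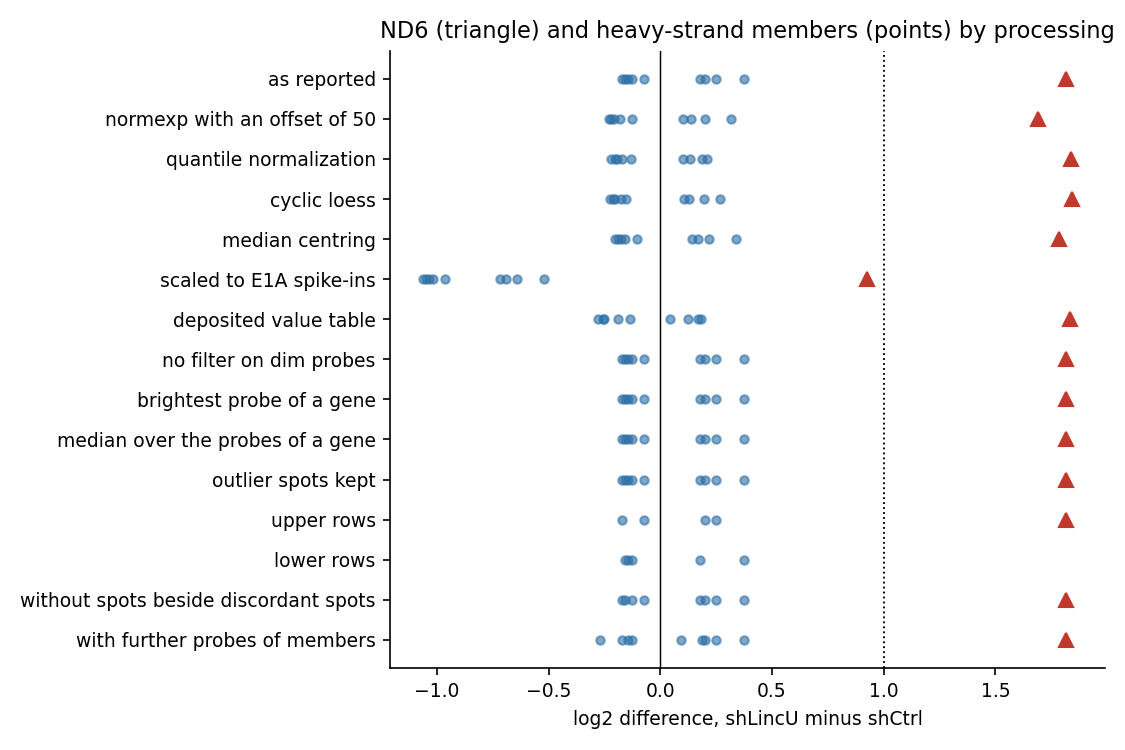
Log2 difference (shLincU minus shCtrl) of ND6 (triangles) and of each heavy-strand member (points) under each treatment of the data, with a dotted line at 2-fold. ND6 is to the right of all heavy-strand members in each row that holds it, and the lower rows hold no ND6 spot.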

How the data were processed

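The authors deposited spot intensity tables from Agilent Feature Extraction, whose version the submitters' processing notes give as 10.7.1.1. The software subtracted a spatially detrended background from each intensity and removed a multiplicative trend, and both arrays shared a slide, per the file headers. Other columns, per the file headers, are flags of 0 or 1 for detection, saturation and outliers. The deposited value table holds log2 values whose slope on log2 of the scanner signals is 1.00 for both arrays; its normalization and centring are not given in the sources used here.

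Here, log2 processed intensity was taken relative to the 75th percentile over non-control probes, outlier spots were left out, spots of a probe and then probes well above background on both arrays were averaged per gene, and 2-fold was the size counted. Genes were named through RefSeq (GRCm38), used for names and gene order only. The calculation was checked on simulated data. The members and lists were chosen with earlier results of these data known; histone genes and further probes of members were added after seeing values. All members, core factors and up to 4 extremes of a list were to be named; other named list members were chosen after their values were seen. Alternatives covered normexp with an offset of 50, quantile, cyclic loess, scaling, probes, filters, 1.5-fold and 3-fold sizes, and slide position. Python 3.11.15, R 4.3.3 and limma 3.58.1 were used.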

Additional observations from a re-analysis of the deposited data

How the results depend on the processing

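No paired analysis was possible because shCtrl and shLincU each had 1 array, which also means that leaving out an array gives no value. With no replicates, a value was read as moved when it shifted by more than the scanner error of 0.20. Scaled to the E1A spike-ins, which shifts all genes alike, the ND6 difference was 0.92, the heavy-strand median -0.96, and 0 members were at least 2-fold higher and 4 lower. In the deposited value table COX1 moved from -0.07 to -0.28 and COX2 from 0.37 to 0.17. In the lower rows, which hold 5 heavy-strand members and no ND6 spot, 0 members were at least 2-fold higher. In the other 12 treatments that gave a value the ND6 difference lay between 1.69 and 1.84. Those on filters, averaging of probes, outlier spots, slide position, neighbours and further probes left its 1 spot untouched and repeated 1.82. Only the changes of background correction or normalization could move it, from 1.69 with normexp to 1.84 with cyclic loess. The contrast of ND6 with the heavy-strand median ran from 1.72, with further probes of members (chosen after seeing the data), to 2.0 with cyclic loess. The heavy-strand median was above 0 in the upper rows (0.06), without spots beside discordant spots (0.05) and with further probes (0.09), so its sign is not settled. ND1, ND2, ND4 and ND5 were below 0 in every treatment that gave a value. ND3, ND4L, COX2 and CYTB were above 0 in each of theirs but E1A scaling, and COX1 with its further probe only. Many treatments leave a single spot unchanged and repeat its value, so such agreement in sign does not settle a direction. As reported, ND1, ND2, ND4 and ND5 lay closer to 0 than the scanner error of 0.20. With the mean in place of the median, the lists of mitochondrial RNA genes and respiratory subunits were at -0.02 and 0.0073. The count of all genes 2-fold apart varied with the treatment and with how many genes it kept: 240 higher and 324 lower as reported, 95 and 108 with normexp, 1462 and 1331 of 36992 genes without a filter, 86 and 156 of 12807 genes in the upper rows, and 43 and 6798 with E1A scaling. ND6 rests on 1 spot per array.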
